A study of Mus musculus with 18 samples.

Results

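Rgs5, Kcnj8, Abcc9, Higd1b, Pdgfrb, Notch3, Steap4, Gucy1a1 and Gucy1a2 are genes that mark pericytes, the cells that wrap capillaries, and were read here in single cells of the mouse heart. They are 9 of the 35843 gene columns of the count tables. They were chosen by their measured levels, with earlier results of these data known: counts of pericyte genes had been raised in hearts given a short hairpin against Jun (shJun) on chips loaded with cardiomyocytes (CMs). The difference between shJun and the non-targeting hairpin (shNT) in CM wells is therefore given as values, without a test. The description as raised in shJun held in 1 pair of animals, whereas on the chips of the other pair most of the 9 genes were lower in the shJun animal, so they are called the pericyte genes below.

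Pericytes sit in the basement membrane of capillaries in close contact with endothelial cells, and share much of their expression with the smooth muscle of larger vessels. Endothelial cells recruit them by secreting PDGF-B, which binds the receptor encoded by Pdgfrb, and Notch signals between both cell types keep the mural identity. The heart muscle is densely supplied with capillaries, and pericytes are among its most frequent non-muscle cells. They set capillary tone through potassium channels that close with ATP and through cyclic GMP, which nitric oxide raises by way of soluble guanylate cyclase.

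The labels give the strain of every sample as Myh6/Esr1-Tomato, in which the Myh6 promoter drives a tamoxifen-inducible Cre in CMs that switches on a tdTomato reporter, and tamoxifen reached the pups through the mothers. Hearts without a hairpin were taken at P4, P7, P14 and P28 and came from 11 animals on 12 chips, where 2 P28 chips whose wells carry no animal name were counted as 1 animal. The knockdown hearts were also taken at P28, from 4 animals on 6 chips. Which hairpin, animal and fraction a well came from was read from the deposited well reports. Each animal had received lentivirus with shJun or shNT into the left ventricular wall as a newborn, so that any cell near the injection could be infected and the hairpin was not restricted to CMs. Each chip carried 1 shJun and 1 shNT animal. Pair 1 was loaded on chips 1 and 2 with the CM fraction and on chip 5 with the non-cardiomyocyte (NCM) fraction, and pair 2 on chips 3, 4 and 6 likewise. With 2 animals per hairpin, a difference between hairpins rests on 2 animals each.

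Of 7482 knockdown wells 7057 passed the filters, and of 15993 wells of the stages 12794 passed. Distinct mRNA tags (UMIs) per well had medians of 25380.5 to 43450.0 over the knockdown animals and of 4109.5 to 17038.0 over the animals of the stages. Of 5008 well barcodes 4671 occurred on more than 1 chip, since the barcodes belong to well positions. Levels below are UMIs of a gene per 1000000 UMIs of nuclear genes (CPM), summed over the wells named. The wells of each knockdown animal and each stage were clustered without the 9 genes. A cluster is called CM-like where the mean of the CM markers, relative to the other wells, was the highest of the marker lists. The name does not require CM markers among the leading genes of the cluster. At P28, CM-like clusters of 660, 541 and 480 wells were led by Ttn, Pcdh17 and Sp1. In CM-like wells Jun itself stood at 27.4 and 30.4 CPM with shJun and at 52.8 and 63.5 CPM with shNT, a log2 difference of -0.947 in pair 1 and -1.07 in pair 2. In wells that were not CM-like, Jun was at 125.2 and 175.0 CPM with shJun and at 107.5 and 110.6 CPM with shNT, so the target was not lower there.

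Kcnj8 (ENSMUSG00000030247) and Abcc9 (ENSMUSG00000030249) encode the pore and the sulphonylurea receptor of the same potassium channel and are neighbours on the minus strand of chromosome 6 of GRCm38, at 142564837 to 142571614 and 142587862 to 142702315, with 16247 bases between them. The 250 bases before the RefSeq start of Rgs5 (ENSMUSG00000026678, chromosome 1, 169655501 to 169695813, a GTPase activator that shortens G protein signals) and of Abcc9 are printed because Rgs5 and Abcc9 were the pericyte genes whose level fell between stages below. The capitals mark matches to motifs, which are GATA in Rgs5 and the overlapping RBPJ core and TEAD letters in Abcc9.
Rgs5, chr1:169655251-169655500, plus strand of GRCm38.p6: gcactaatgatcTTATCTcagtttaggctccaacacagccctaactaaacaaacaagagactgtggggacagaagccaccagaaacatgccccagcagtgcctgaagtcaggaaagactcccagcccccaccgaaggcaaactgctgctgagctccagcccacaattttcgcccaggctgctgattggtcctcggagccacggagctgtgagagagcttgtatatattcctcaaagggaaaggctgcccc
Abcc9, chr6:142702275-142702524, minus strand of GRCm38.p6: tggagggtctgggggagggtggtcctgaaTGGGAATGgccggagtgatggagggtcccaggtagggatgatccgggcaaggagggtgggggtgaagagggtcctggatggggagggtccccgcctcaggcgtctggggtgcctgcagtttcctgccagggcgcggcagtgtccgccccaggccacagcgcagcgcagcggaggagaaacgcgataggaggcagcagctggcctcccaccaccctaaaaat
RefSeq promoters, which also hold 50 bases after the start, were at hand for 7 of the 9 genes, and not for Higd1b and Pdgfrb. On both strands, none of these 7 held the AP-1 letters TGANTCA, to which JUN binds with its partners and which 7.81% of 32851 promoters held. The CRE letters TGACGTCA were likewise in none of the 7 and in 1.79% of all promoters. The RBPJ core TGGGAA was in 4, namely Kcnj8, Abcc9, Steap4 and Gucy1a1, against 25.56% of all. The EBF core CCCNNGGG was found for Notch3 and Gucy1a1 and in 13.67% of all, the GATA motif AGATAA for Rgs5 and in 11.18%, and the TEAD motif CATTCC for Abcc9 and in 14.66%. No CArG box or MEF2 motif was matched in the 7, and 1.63 and 0.56% of all promoters held them. A match describes letters in these windows only.

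The genes were first set against the cell types, to see whether mural cells carried them. The 8 markers used to name mural clusters hold none of the 9 genes. Mural-like clusters were found in shJun animal 1 (137 wells), shNT animal 1 (43), shNT animal 2 (71) and in both P7 animals (100 and 94), and in no other animal. In shJun animal 2 no cluster took that name, and in shNT animal 2 a further cluster of 299 wells, whose mural markers stood out but whose leading genes were mostly globin and T cell genes, stayed unnamed. Rgs5 was at 2759.9 to 5783.4 CPM in these 5 mural-like sums, against 26.7 to 581.3 CPM in the 14 CM-like sums and 64.4 to 978.1 CPM in the 15 Endothelial-like sums. The mural range lay above every CM-like and every Endothelial-like sum.

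The channel genes followed the same order. Kcnj8 was at 303.0 to 909.4 CPM in mural-like and at 0 to 99.3 CPM in CM-like wells. Abcc9 was at 524.1 to 1006.5 CPM in mural-like and at 66.4 to 192.6 CPM in CM-like wells. CMs are known to use the Abcc9 product as part of their own ATP-sensitive channel. Higd1b (ENSMUSG00000020928, chromosome 11, 102835849 to 102838040), a small mitochondrial membrane protein, was at 200.9 to 1939.2 CPM in mural-like and at 1.26 to 49.9 CPM in CM-like wells. The receptor genes Pdgfrb (ENSMUSG00000024620, chromosome 18, 61045150 to 61085061) and Notch3 (ENSMUSG00000038146, chromosome 17, 32120820 to 32166852) stood at 597.4 to 1757.3 and at 111.5 to 713.9 CPM in mural-like wells, and at 8.92 to 72.1 and 1.57 to 22.1 CPM in CM-like wells. Steap4 (ENSMUSG00000012428, chromosome 5, 7960457 to 7982213), a metalloreductase, was at 178.4 to 439.0 CPM in mural-like and at 0.315 to 49.1 CPM in CM-like wells. None of these ranges overlapped. The share of all genes that were separated in this way was not counted.

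For Notch3, Gucy1a1, Gucy1a2, Kcnj8 and Higd1b the mural-like wells did not stand alone at the top. In the 4 Smooth muscle-like sums of P4 and P7, Gucy1a1 (ENSMUSG00000033910, chromosome 3, 82092427 to 82145789), a subunit of soluble guanylate cyclase, was at 768.0 to 914.4 CPM, overlapping its 119.1 to 813.7 CPM in mural-like wells. Notch3 was at 254.8 to 425.3 CPM in Smooth muscle-like wells, within its mural range. Gucy1a2 (ENSMUSG00000041624, chromosome 9, 3532778 to 3894736), the alternative subunit of the same enzyme, was rare everywhere, with 9.12 to 57.6 CPM in mural-like wells, 1.4 to 156.2 CPM in Smooth muscle-like wells and 0 to 32 CPM in CM-like wells, so the classes overlapped. For Kcnj8 the overlap came from the 2 Granulocyte-like sums of P28, at 0 and 1639.3 CPM, the latter above every mural-like sum and with 99.3% of its UMIs in 1 of 22 wells. For Higd1b the highest Fibroblast-like sum, 210.4 CPM, was above the lowest mural-like one.

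**Figure D1:**
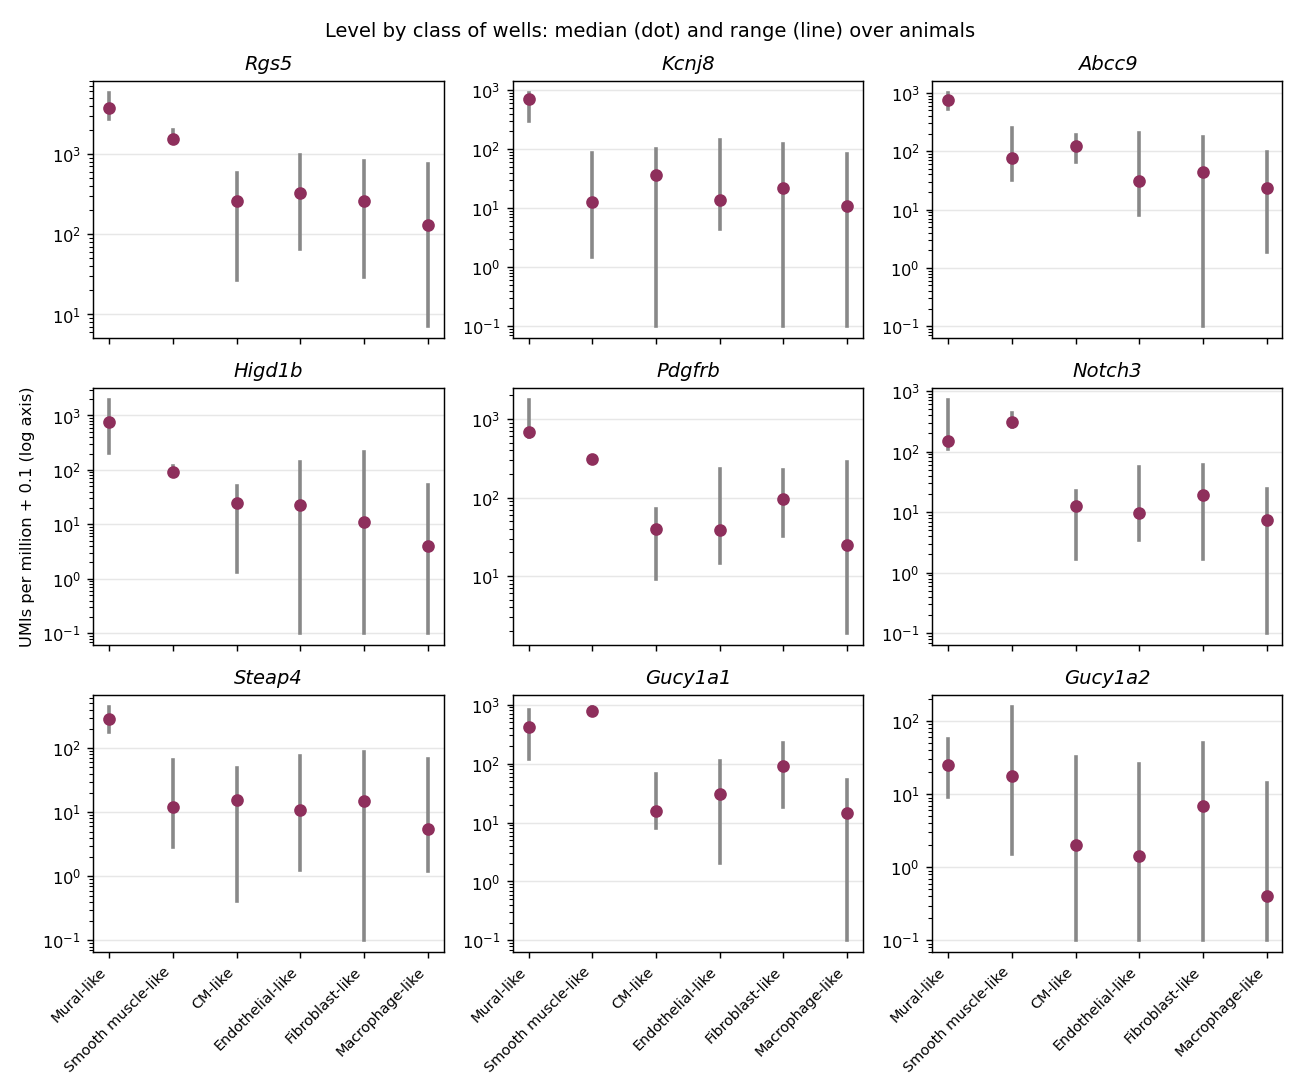
Level of each pericyte gene by class of wells, in CPM plus 0.1 on a log axis. Dots are medians and lines the range over animals (5 animals with mural-like, 4 with Smooth muscle-like and 14 with CM-like wells). Among the classes drawn, the median is highest in mural-like wells for all genes except Notch3 and Gucy1a1, for which it is highest in Smooth muscle-like wells. Granulocyte-like wells, where 1 sum reached 1639.3 CPM of Kcnj8, are not drawn.

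Which of the 9 genes differed between hairpins was then read in CM-like wells, of which there were 833 and 799 in the shJun and 1046 and 1082 in the shNT animals, holding 40505280 to 65919459 UMIs per animal. Both shJun animals were above both shNT animals for 5 of the 9 genes, Abcc9, Higd1b, Pdgfrb, Notch3 and Gucy1a2, and below them for none. Among all 18012 genes tested, 14.3% showed the former order and 10.4% the latter. Since this contrast chose the genes, nothing is read from these counts. The edgeR fit gave 8 of 9 log2 changes above 0 with a median of 0.51, against -0.01 over all genes. No gene of 18012 passed an adjusted p of 0.05 (0% called), while 414 had an unadjusted p under 0.05 and DESeq2 called 15.

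Rgs5 was at 208.9 and 279.0 CPM with shJun and at 76.9 and 256.2 CPM with shNT, from 5069 to 17743 UMIs each. Only shNT animal 1 was low, and the other 3 animals lay close together. The fitted log2 change was 0.51 (SE 0.52).

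The channel pair moved unevenly. Kcnj8 was at 37.4 and 63.4 CPM in shJun and at 16.1 and 68.4 CPM in shNT (log2 0.22, SE 0.64). The groups overlapped, with shNT animal 2 the highest and shNT animal 1 the lowest of the 4. Abcc9 was at 192.6 and 182.0 CPM in shJun and at 164.1 and 162.8 CPM in shNT, with a log2 change of 0.15 (SE 0.19) and no overlap.

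Higd1b was at 39.9 and 28.1 CPM in shJun and at 5.57 and 12.2 CPM in shNT. The log2 change was 1.90 (SE 0.45) and the groups did not overlap, with 53.1% of the UMIs of shJun animal 1 in a single well. Gucy1a2 was at 32.0 and 5.82 CPM in shJun and at 1.09 and 4.8 CPM in shNT (log2 2.65, SE 0.98). Its groups were separated by little, since shJun animal 2 lay near shNT animal 2.

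Among the receptors, Pdgfrb was at 72.1 and 55.2 CPM in shJun and at 29.8 and 46.3 CPM in shNT (log2 0.70, SE 0.30). Notch3 was at 13.0 and 11.8 CPM against 8.01 and 7.23 CPM (log2 0.66, SE 0.32). For both receptors the hairpins did not overlap. Steap4 was at 9.8 and 19.9 CPM in shJun and at 5.79 and 27.0 CPM in shNT (log2 -0.18, SE 0.71), and Gucy1a1 at 11.9 and 14.4 CPM against 10.2 and 12.6 CPM (log2 0.17, SE 0.31). For Steap4 both shJun animals lay between the shNT animals, and for Gucy1a1 the animals of both hairpins alternated.

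**Figure D2:**
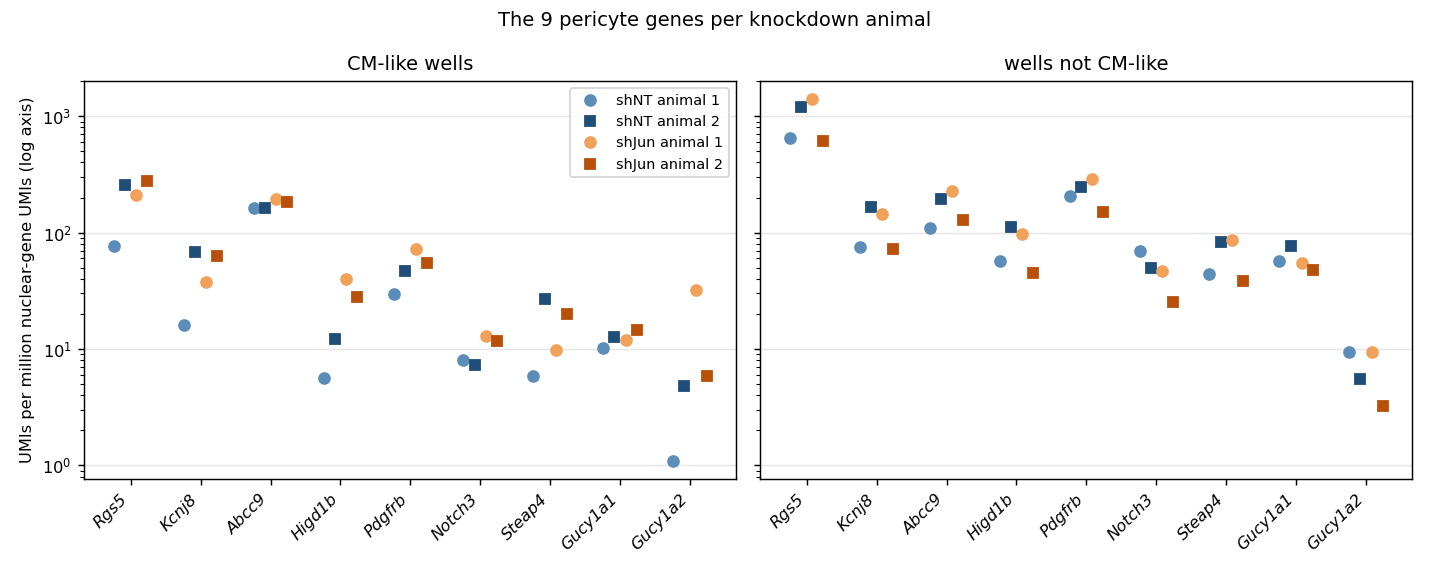
Level of each pericyte gene in the 4 knockdown animals, in CPM on a log axis. The left panel shows CM-like wells, the right panel all other wells. In CM-like wells shNT animal 1 lies lowest for 7 of the 9 genes, and in the other wells shJun animal 2 lies lowest for all genes except Abcc9.

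Summed levels of the 8 mural markers, which share no gene with the 9, were 275.1 and 292.5 CPM in CM-like wells with shJun and 207.4 and 498.2 CPM with shNT, with no marker at 0. Endothelial markers summed to 1966.3 and 2144.8 CPM in shJun and to 1303.8 and 3065.6 CPM in shNT, again with none at 0. Both sums were lowest in shNT animal 1 and highest in shNT animal 2. The part of such RNA in the levels of the 9 genes was not tested. Without shNT animal 2 the median log2 change of the 9 genes was 1.31, and without shNT animal 1 it was 0.18, with Rgs5 at -0.09 and Kcnj8 at -0.46. The choice of the shNT animal therefore set the size of the difference for these 2 genes.

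Within pairs the picture divided. In CM-like wells of pair 1, 9 of 9 genes were higher in shJun, with a median log2 difference of 1.22, where 53% of all genes were higher. In pair 2 it was 7 of 9 with a median of 0.192, where 53.3% of all genes were higher. In shNT animal 2 the 71 mural-like wells, which are outside the CM-like sum, held a median of 11% of their UMIs in CM markers. Its CM-like wells held 10.8%. No mural-like cluster was set apart in shJun animal 2, so the CM-like wells of pair 2 were not cut alike. The effect of this on the counts was not tested. Rgs5 differed by 1.44 on the log2 scale in pair 1, a 2.72-fold higher level.

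Each chip held both animals of its pair, so the hairpins were also compared on every chip over all passing wells. On chip 1 Rgs5 was at 275.3 CPM in shJun and 67.6 CPM in shNT, on chip 2 at 192.5 and 75.6 CPM, and on chip 5 at 1522.5 and 575.4 CPM. The other pair differed. In pair 2 it was at 322.1 and 399.9 CPM on chip 3, at 276.4 and 387.1 CPM on chip 4, and at 705.8 and 1288.3 CPM on chip 6. The shJun animal was higher on each chip of pair 1 and lower on each chip of pair 2.

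Kcnj8, Pdgfrb and Steap4 had the same pattern over the 6 chips, so that 4 of the 9 genes were above on the 3 chips of pair 1 and below on the 3 of pair 2, as were 2.63% of all 18012 genes. Over the 9 genes, 9, 8 and 8 were higher in shJun on chips 1, 2 and 5, where 54, 57.8 and 45.2% of all genes were. On chips 3, 4 and 6 it was 3, 3 and 0, where 52.8, 49.5 and 65% of all genes were. Higd1b was higher in shJun on both CM chips of pair 2, at 37.3 and 16.3 CPM on chip 3 and at 32.5 and 23.9 CPM on chip 4, and lower on the NCM chip 6 at 35.9 and 131.6 CPM. The difference between the pairs was not tested, since each pair is 1 animal per hairpin.

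**Figure D3:**
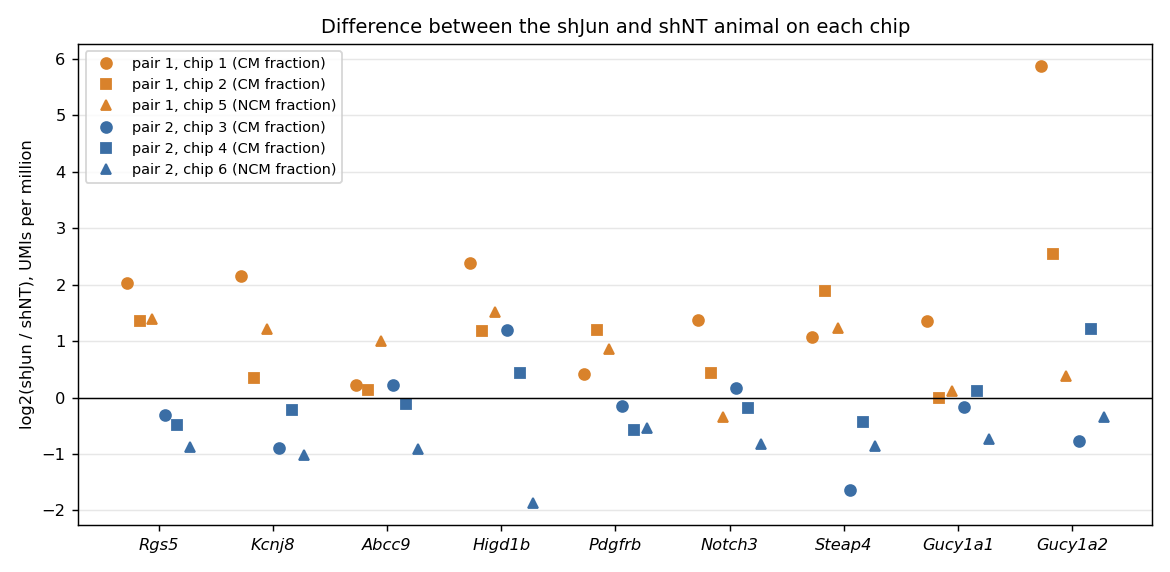
Log2 ratio of the shJun to the shNT animal on each chip for each pericyte gene, over all passing wells. Orange symbols are the 3 chips of pair 1, blue symbols those of pair 2, triangles the NCM fraction. Orange lies mostly above 0 and blue mostly below it, with 0 of 9 genes higher in shJun on chip 6.

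How many wells carried these genes was read next. Rgs5 had at least 1 UMI in 68.5 and 82.9% of CM-like wells of the shJun animals and in 53.1 and 77.2% of those of the shNT animals. After thinning each well to 5000 UMIs, which left out 26 to 146 CM-like wells per animal, this was 34.1 and 48.1% against 21.4 and 51.7%. In Macrophage-like wells of the same animals, thinned alike, it was 46.2 and 47.9% against 26.4 and 47.8%, with 3 to 128 shallower wells left out. Before thinning, the median UMIs per well were 30128.5 to 54090.0 in CM-like and 1758.0 to 54012.0 in Macrophage-like wells. A macrophage should lack Rgs5. In animals 1 of both hairpins the share in CM-like wells was below that in Macrophage-like wells, of which 78 and 91 were deep enough. The source of the Rgs5 RNA in either class was not tested. In animals 2 the Macrophage-like wells held a median of 9.09% (shJun) and 7.32% (shNT) of their UMIs in CM markers, near the 11 and 10.8% of the CM-like wells and above the 2.03 and 1.63% of animals 1, so there they give no clean background.

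Abcc9 differed from Rgs5 in this comparison. After thinning it had a UMI in 49.3 and 47.5% of CM-like wells in shJun and in 41.9 and 38.7% in shNT, and in 8.97 and 31.2% against 16.5 and 21.7% of Macrophage-like wells. The share was higher in CM-like than in Macrophage-like wells in 4 of 4 animals. For Kcnj8 the thinned shares were 5.0 to 15% in CM-like wells and 2.2 to 12.8% in Macrophage-like wells, with the CM-like share lower in shJun animal 1 and higher in the other 3 animals. The CM marker share of the Macrophage-like wells of animals 2 applies to these comparisons too.

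In 30 control wells of the knockdown chips marked as negative, with 40364 UMIs in all, Rgs5 had 8 UMIs, or 198.2 CPM with an exact Poisson 95% interval of 85.6 to 390.5, which covers counting error only. The interval held 3 of the 4 Rgs5 levels of CM-like wells. Abcc9 had 4 UMIs there (99.1 CPM, interval 27 to 253.7), and its interval held all 4 of its levels in CM-like wells. Such levels are shares of the UMIs of a well and not amounts. The control wells held a median of 476.5 UMIs, and the CM-like wells had medians of 30128.5 to 54090.0. How much of either gene in a CM-like well was stray RNA was not tested.

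Single wells held much of some sums. In shJun animal 1, 1092 of 1298 UMIs of Gucy1a2 (84.1%) came from 1 CM-like well, and without it the level was 5.09 CPM. For Higd1b in the same animal 858 of 1617 UMIs (53.1%) came from 1 well, which lay on the NCM chip, and the level without it was 18.7 CPM. For Kcnj8 it was 701 of 1513 UMIs (46.3%). Gucy1a2 was detected in 2.22 to 3.75% of CM-like wells in all 4 animals, with no order by hairpin. Rgs5, Abcc9 and Pdgfrb did not rest on a single well, since it held at most 16.8, 4.22 and 12.7% of their UMIs. Without the top well of each gene and animal the median log2 change of the 9 genes was 0.44.

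**Figure D4:**
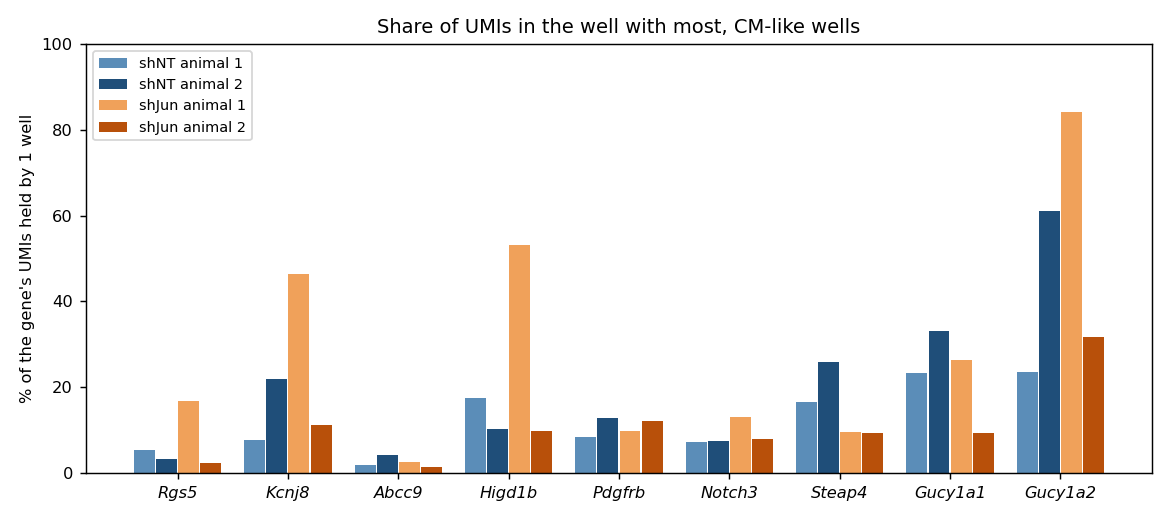
Share of each pericyte gene's UMIs in CM-like wells that came from the single well with most of them, for the 4 knockdown animals. The bars reach 84.1% for Gucy1a2 and 53.1% for Higd1b in shJun animal 1 and stay at or below 4.22% for Abcc9.

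The genes also met in the same wells. The median CM-like well held UMIs of 2 and 3 of the 9 genes in the shJun and of 2 and 3 in the shNT animals, and at least 5 of the 9 were present in 12.5 and 21.9% against 7.93 and 12% of wells. Wells with at least 3 of the 8 mural markers made up 26.7 and 45.4% of CM-like wells in shJun and 20.8 and 38.2% in shNT. They held 57.6 and 72.1% of the UMIs of the 9 genes in shJun and 44.6 and 65.2% in shNT. Rgs5 was at 355.5 and 308.8 CPM in these wells and 119.5 and 232.9 CPM in the rest of the shJun wells. In shNT it was at 117.1 and 272.8 CPM in them and 56.7 and 234.4 CPM in the rest. The marked wells were also deeper, with medians of 47829.0 to 73407.5 UMIs against 24419.0 to 40931.5. In the CM fraction as loaded, without regard to cluster, such wells made up 26 and 37.2% in shJun and 19.7 and 40.7% in shNT. They held 58.9 and 68.9% of the UMIs of the 9 genes there in shJun and 43 and 69.6% in shNT. Animals 2 thus had the opposite order in that fraction. Whether the hairpin changed the number of such wells was not tested.

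Wells that were not CM-like were tested with edgeR. They came from the same animals as the wells that chose the genes, and some lay on the CM chips, so the tests between hairpins here and in the next classes are not independent of that choice. Rgs5 was at 1401.8 and 615.5 CPM in shJun and at 648.9 and 1199.7 CPM in shNT, with a log2 change of 0.00 (SE 0.59, adjusted p = 1). The other 8 genes had log2 changes from -0.79 for Notch3 (SE 0.47, adjusted p = 0.947) to 0.08 for Abcc9 (SE 0.52, adjusted p = 0.999). None of the 9 passed the test, nor did any of 17973 genes (0% called), though 825 genes had a p below 0.05 before adjustment and DESeq2 called 162, none of them one of the 9.

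The pairs differed here too. In pair 1, 6 of 9 genes were higher in shJun, with a median log2 difference of 0.762 where 44.7% of all genes were higher, and in pair 2 0 of 9 with a median of -0.955 where 63.9% were. Both shJun animals lay below both shNT animals for Notch3 and Gucy1a1, as for 12.0% of genes, and above them for none, as for 18.3% of genes. Mural markers summed to 618.1 and 370.2 CPM in shJun and to 534.0 and 706.2 CPM in shNT, and globin and other erythroid genes to 159188.1 and 27637.0 against 86119.4 and 196448.1 CPM. Each of these sums had the same order of the 4 animals within pairs as Rgs5, namely higher in the shJun animal of pair 1 and in the shNT animal of pair 2. Of the 8 mural markers none was at 0, and of the 8 erythroid markers 1 in each animal. Their part was not tested, and fewer pericytes cannot be told apart from less RNA per pericyte in such sums.

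Endothelial cells are the class in direct contact with pericytes, and 200 to 351 wells per animal were Endothelial-like. Of the 9 genes 7 were higher in both shJun than in both shNT animals, all except Notch3 and Gucy1a1, where 19.8% of 14414 genes had that order. Abcc9 was at 203.4 and 125.8 CPM in shJun and at 55.3 and 19.5 CPM in shNT (log2 2.05, SE 0.67, adjusted p = 0.874). Kcnj8 was at 143.3 and 70 CPM against 36.6 and 9.69 CPM (log2 2.13, SE 0.82, adjusted p = 0.874). Both channel genes were higher in shJun in each pair.

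Higd1b was at 137.8 and 43 CPM against 15.2 and 5.91 CPM in these wells (log2 3.01, SE 0.91, adjusted p = 0.874 by edgeR), and 1 well held 68% and 62.3% of its UMIs in the shJun animals. Rgs5 was at 978.1 and 781.6 CPM against 354.7 and 515.1 CPM (log2 0.87, SE 0.42, adjusted p = 0.874). Mural markers summed to 529.4 and 647.3 CPM in shJun and to 420.4 and 227.2 CPM in shNT, with none of the 8 at 0, so they had the same order as these genes. Fibroblast markers had it as well, at 8202.8 and 6907.2 against 4557.5 and 3886.5 CPM, and 8 of 8 had log2 changes above 0 (median 0.78). Changes of the 8 CM markers (median -1.28) and of the 7 erythroid markers tested (median -1.20) were all below 0. CM markers summed to 4606.6 and 6918.1 CPM in shJun and to 20994.6 and 5448.8 CPM in shNT, so only shNT animal 1 stood high. Erythroid markers summed to 93049.7 and 40041.0 CPM against 123246.1 and 157509.3 CPM. The part of these lists was not tested. No gene of 14414 passed the edgeR test (0% called). At an unadjusted p under 0.05 there were 804, and DESeq2 called 187, Higd1b among them.

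In Fibroblast-like wells 3 of the 9 genes, Kcnj8, Higd1b and Steap4, were higher in both shJun animals, where 17.5% of 14240 genes were. On the NCM chips lay 160 of 168 and 66 of 163 of these wells in shJun and 85 of 89 and 73 of 189 in shNT. In animals 2 most of them thus came from the CM chips, on which the genes had been chosen. With the NCM chips alone edgeR called 0 of 13041 genes. Steap4 was at 39.6 and 86.9 CPM against 14.7 and 32.6 CPM (log2 1.32, SE 0.77, adjusted p = 1). Kcnj8 was at 82.9 and 122.7 CPM against 5.38 and 60 CPM (log2 1.51, SE 1.08, adjusted p = 1). In animals 2 of both hairpins, CM markers summed to 46035.3 and 37807.0 CPM in these wells, against 4935.9 and 13382.9 CPM in animals 1. Smooth muscle markers summed to 265.7 and 434.5 CPM in shJun and to 145.3 and 82.5 CPM in shNT, and 6 of 6 tested had log2 changes above 0 (median 1.90). Mural markers summed to 230.7 and 364.3 against 98.7 and 284.8 CPM, with 7 of 8 changes above 0 (median 1.11). The part of either list was not tested. The edgeR test called none of the 14240 genes (0%), of which 595 had a p below 0.05 before adjustment, while DESeq2 called 84.

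Genes that work with the 9 were counted by lists in CM-like wells of the knockdown animals, and no member of any list passed the edgeR test. Of 17 other pericyte genes tested 12 had log2 changes above 0 (median 0.48), against a median of -0.01 over all genes. Vtn, a secreted pericyte protein, was at 66.3 and 55.3 CPM in shJun and at 32.5 and 248.6 CPM in shNT, and Mcam, an adhesion molecule, at 24.2 and 33.8 CPM against 20.2 and 24.3 CPM. Vtn was highest in shNT animal 2, as were the mural markers, of which it is one.

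Of 14 contractile smooth muscle genes 10 had log2 changes above 0 (median 0.33). Of 15 partners of the channel and of cyclic GMP 10 did (median 0.21), among them Gucy1b1, the common subunit of guanylate cyclase, at 8.05 and 9.8 CPM against 2.67 and 10.3 CPM. Of 20 partners of PDGF and Notch 11 did (median 0.10), with Hes1, a Notch target, at 75.5 and 61.9 CPM against 81.7 and 53.3 CPM. Of 12 other RGS genes 5 did (median -0.08), with Rgs4 at 28.4 and 11.7 CPM against 3.64 and 8.84 CPM. In the wells that were not CM-like the medians of these 5 lists, in the same order, were -0.14, 0.63, -0.26, -0.38 and 0.40, against 0.01 over all genes.

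The animals of the stages were not in the contrast that chose the genes. In CM-like wells, 6 of the 9 genes rose from P4 to P28 by edgeR, where 3.92% of 15449 genes were called higher and 3.53% lower. Of the CM-like wells of P4, 241 formed a cluster led by Sln and Myl7, genes of atrial CMs, and 106 a cluster led by Alpk2 and Ttn. No CM-like cluster of P28 had Sln or Myl7 among its leading genes. A different mix of atrial and ventricular CMs cannot be told apart from age in these sums. Rgs5 was at 58.1 and 26.7 CPM in the P4 animals and between 278.8 and 581.3 CPM, with a median of 382.5 CPM, in the 5 P28 animals. It rose by a log2 of 3.39 (SE 0.46, adjusted p = 0.000643), with every P28 animal above both P4 animals. At P7 the 1 animal with enough CM-like wells had 43.9 CPM, and the P14 animals 215.9 and 265.8 CPM, so both P14 animals were also above both P4 animals. Thinned to 5000 UMIs, CM-like wells had an Rgs5 UMI in 37.2 to 62.2% of wells at P28 and Macrophage-like wells in 6.78 to 25.6%, and the CM-like share was the higher in each of the 5 animals. At P4 it was 11.9 and 7.11% against 14.3 and 5.77%. Thinning left out 16 to 222 CM-like and 21 to 110 Macrophage-like wells per P28 animal, whose median UMIs per well had been 4428.0 to 34618.5 and 6565.5 to 11016.0.

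Of the channel genes Kcnj8 rose, from 7.9 and 0.84 CPM at P4 to between 27.3 and 99.3 CPM with a median of 47.9 at P28 (log2 3.76, SE 0.87, adjusted p = 0.0149). Abcc9 was at 85.6 and 89.5 CPM at P4 and between 66.4 and 139.1 CPM with a median of 118.1 at P28 (log2 0.44, SE 0.40, adjusted p = 0.535). For Abcc9 the stages overlapped. Pdgfrb rose from 15 and 8.92 CPM to between 32.8 and 69.2 CPM (log2 2.32, SE 0.47, adjusted p = 0.00711). Notch3 rose from 5.43 and 1.57 CPM to between 11.4 and 15.6 CPM (log2 2.15, SE 0.61, adjusted p = 0.0416). Both receptors were higher in all 5 P28 than in both P4 animals.

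Steap4 rose from 2.31 and 0.315 CPM to between 11.4 and 49.1 CPM (log2 4.28, SE 0.84, adjusted p = 0.00582), the P4 sums holding 14 and 3 of its UMIs. Higd1b rose from 6.92 and 1.26 CPM to between 12.1 and 31.9 CPM (log2 2.77, SE 0.78, adjusted p = 0.0397). Their P28 animals all lay above the P4 animals. The cyclase subunits differed from this. Gucy1a1 was at 66.2 and 38.4 CPM at P4 and between 9.08 and 35.2 CPM at P28 (log2 -1.36, SE 0.52, adjusted p = 0.123), and Gucy1a2 had 4 and 1 UMIs in the P4 sums (log2 3.06, SE 1.45, adjusted p = 0.213).

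Where a well was called CM from 5% of its UMIs in CM markers instead of by cluster, only Rgs5 and Steap4 kept the call, with Kcnj8 at 3.30, Pdgfrb at 2.24, Notch3 at 2.24 and Higd1b at 2.07 on the log2 scale. Without P4 animal 2, leaving a single one that is assumed to vary like the other groups, only Rgs5 kept it, and without P4 animal 1 Rgs5, Kcnj8 and Steap4 did. With at least 1000 genes per well the calls of Pdgfrb (2.21), Notch3 (2.01) and Higd1b (2.74) were lost, and with at most 5000 UMIs per well that of Notch3 (1.49). Leaving out a single P28 animal ended the call of Higd1b for 4 of the 5 animals, at 2.71 to 2.78, and that of Notch3 also for 4, at 2.08 to 2.19. Markers of other cells moved with the stage in the same wells. Endothelial markers summed to 842.3 and 512.6 CPM at P4 and to 1182.2 to 4538.5 CPM at P28, with none of 8 at 0, and 6 of the 8 were called higher. Macrophage markers summed to 23.5 and 23.2 CPM against 284.2 to 598.7 CPM with 6 of 8 called higher, and erythroid markers to 506.0 and 209.7 CPM against 5389.7 to 58987.7 CPM, with 1 to 3 of 8 at 0. Mural markers summed to 157.4 and 105.9 CPM at P4, where 1 of 8 was at 0 in 1 animal, and to 139.8 to 304.1 CPM at P28, and 3 of 8 were called higher. The part of such RNA was not tested. The paper describes a kit for the younger and perfusion for the older hearts of its bulk samples, and perfusion for the knockdown hearts. It names no digestion for the P4 and P28 hearts without a hairpin. Whether digestion changed with age is thus not known, and such a change cannot be told apart from age.

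Among the lists in this comparison, 5 of 17 other pericyte genes were called higher and none lower. The lists share genes. Of these 5, Vtn, Colec11 and Rgs4 are the 3 mural markers already counted above, and Rgs4 is also the RGS gene counted below. Vtn rose by a log2 of 3.36 (SE 0.96, adjusted p = 0.0425), and Art3 was at 0.82 (SE 0.51, adjusted p = 0.346). None of 14 contractile genes was higher and 3 were lower, Acta2, the smooth muscle actin, by a log2 of -1.53 (SE 0.40, adjusted p = 0.029). Of 20 partners of PDGF and Notch 3 were called higher, namely Pdgfb, the ligand of the Pdgfrb receptor, Dll4, an endothelial Notch ligand, and Hes1 (log2 1.52, SE 0.41, adjusted p = 0.0325). Of 12 RGS genes 1, Rgs4, was higher and 2 were lower, and of 13 channel and cyclic GMP partners 1, the kinase gene Prkg1, was lower (log2 -3.42, SE 0.57, adjusted p = 0.00204).

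In wells that were not CM-like, Rgs5 was at 261.6 and 229.3 CPM at P4, at 562.4 and 504.0 CPM at P7, at 243.5 and 296.9 CPM at P14 and between 114.7 and 274.6 CPM, with a median of 155.6 CPM, at P28. Its level was highest at P7 and lowest at P28, while P4 and P14 overlapped. Between P7 and P4 the log2 change of 1.19 (SE 0.32) missed the threshold with an adjusted p of 0.271, although both P7 animals were higher, and DESeq2 called it. None of the 9 genes was called between these stages, where 0% of 20447 genes were called higher and 0.225% lower, and all 9 log2 changes were above 0, with a median of 0.86 against 0.02 over all genes.

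From P7 to P14 no pericyte gene was called, where 2.02% of genes were called higher and 1.25% lower. Gucy1a1 was at 194.3 and 185.2 CPM at P7 and at 26.6 and 38.1 CPM at P14 (log2 -1.74, SE 0.47, adjusted p = 0.0567). Notch3 was at 50.1 and 40.8 CPM and then at 7.35 and 6.24 CPM (log2 -1.85, SE 0.52, adjusted p = 0.0673). Of the 14 contractile genes 6 fell in the same step, Acta2 and Myl9 among them, and Gucy1b1 fell as well. Mural-like and Smooth muscle-like clusters were both present at P7 and neither at P14. Erythroid markers summed to 14519.3 and 8555.7 CPM at P7 and to 350975.2 and 114179.2 CPM at P14, with 4 called higher, as were 4 of 8 macrophage markers. The part of either list was not tested.

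From P14 to P28, Rgs5 and Abcc9 fell, as did 1.66% of 20447 genes, while 0.763% rose and none of the 9 did. Rgs5 fell by a log2 of 1.38 (SE 0.25, adjusted p = 0.0123). Abcc9 went from 35.6 and 84.8 CPM to between 10.4 and 34.6 CPM, by a log2 of -1.89 (SE 0.35, adjusted p = 0.014). All 5 P28 animals were below both P14 animals for Abcc9, and 4 of 5 for Rgs5. With sums per chip in place of animals the changes were -0.89 and -1.13 and both calls were lost, as they were without P14 animal 2 (-1.43 and -1.41). That of Rgs5 was also lost without P14 animal 1 (-1.20) and where wells were called CM by marker share (-1.01). CM markers, of which 7 of 8 were called lower in the same wells, moved with this step, at 8783.2 and 12663.8 CPM at P14 and 1235.7 to 5438.2 CPM at P28 with none at 0. Of 8 macrophage markers 6 were called higher, and the part of either list was not tested.

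**Figure D5:**
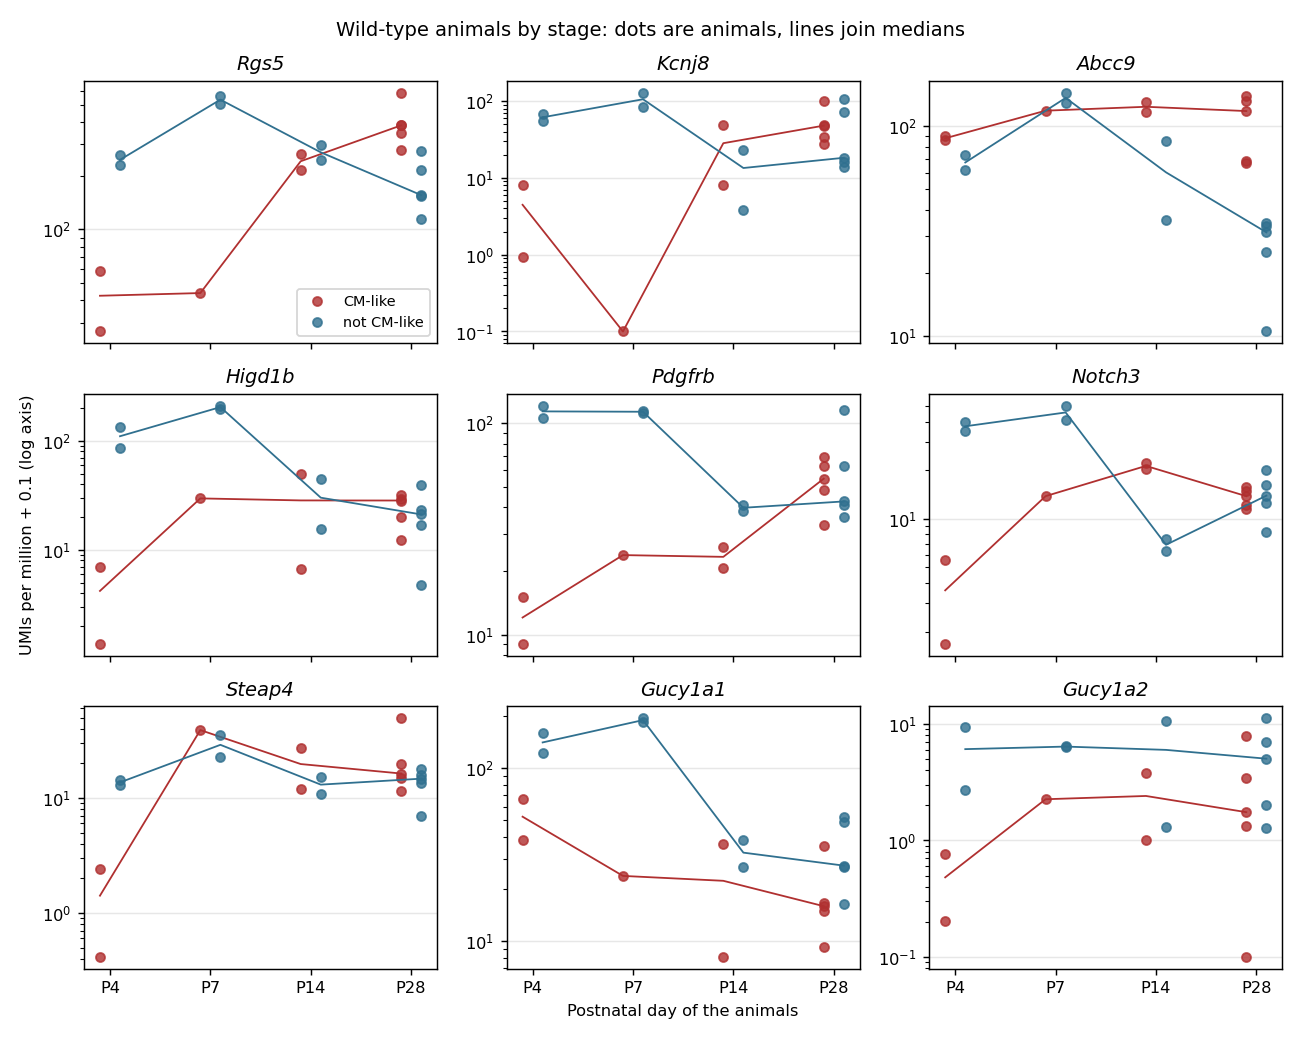
Level of each pericyte gene by age in animals without a hairpin, in CPM plus 0.1 on a log axis. Dots are animals, red for CM-like and blue for other wells, and lines join the medians (1 animal at P7 for CM-like wells). Rgs5 rises with age in CM-like wells, from 58.1 and 26.7 CPM at P4 to a median of 382.5 CPM at P28, and peaks at P7 in the others.

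The fraction from which a well was loaded was given for 2 P14 and 4 P28 animals. Rgs5 was higher in the CM than in the NCM fraction in 2 of 2 and 4 of 4 of them, with 287.6 to 629.1 CPM against 113.1 to 209.7 CPM at P28. Abcc9 was as well, with 66.2 to 144.7 CPM against 9.64 to 31.2 CPM at P28. The CM fraction of the P14 animals held 635 and 399 wells, while only 299 and 169 of all their wells were CM-like. Wells with at least 3 mural markers numbered 23 and 8 in that fraction and 2 and 1 in the NCM fraction. In the rest of the P14 wells Rgs5 was at 317.3 and 242.3 CPM in the CM and at 108.8 and 39.6 CPM in the NCM fraction. In the knockdown animals the order of Rgs5 was the opposite, for instance 1522.5 CPM on the NCM chip and 275.3 and 192.5 CPM on the CM chips in shJun animal 1. Pdgfrb was higher in the CM fraction in 1 of 2 and 2 of 4 animals, and Higd1b in 2 of 2 and 2 of 4. The stages and the knockdown animals thus differed in the fraction that carried Rgs5, without a test of that difference.

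Over 79 sums of an animal and a class, the genes most like the mean of the 9 on the scale of log2(CPM + 1) were Rgs4 (Pearson r = 0.854), Rerg (0.808), Cspg4 (0.798), Serpini1 (0.761), Mylk (0.748), Plce1 (0.747), Itga7 (0.740), Carmn and Rasl12 (both 0.726) and Gucy1b1 (0.725). Rgs4 and Cspg4 helped to name the mural clusters. Of the 9 genes, Rgs5 was most like the mean of the other 8 (0.844) and Gucy1a1 least (0.608). The sums share animals, chips and depths, so these are descriptions.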

How the data were processed

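Single cells were dispensed into ICELL8 wells, imaged, and sequenced by the authors, who aligned reads to mm10 with STAR 2.5.2b, counted them per Ensembl gene with featureCounts (Subread 1.4.6-p1) and collapsed duplicates by UMI. The deposited values are these raw counts of UMIs per gene and well, with a report that names the animal of each well. Single live cells had been picked on the images, and no doublet caller was run here.

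Wells with at least 500 genes and log10 UMIs within 2 SD of the mean of their stage or of the knockdown wells were kept and clustered per knockdown animal or stage without the 9 genes (scikit-learn 1.9.0, 10 principal components, 30 neighbours; leidenalg 0.10.2, resolution 1 for knockdown animals and 0.8 for stages), and clusters were named from 8 markers per class. A name needed a marker mean 0.2 or more above the other wells on the log2 scale. UMIs of nuclear genes were summed per animal (at least 20 wells). These sums were tested in R 4.3.3 with edgeR 4.0.16 (TMM, filterByExpr, quasi-likelihood F-test, Benjamini-Hochberg adjustment over all genes tested, threshold 0.05), and DESeq2 1.42.0 was an alternative. The fits were also run on simulated counts with the same spread set for every gene. That run does not give their power or error rate at the spread between these animals. Every adjusted p in the text is from edgeR unless DESeq2 is named. The stages shared 1 fit per well class. Each stage was run on chips of its own, so stage and chip cannot be told apart. At P14 each animal also had its own chip, while P28 animals that shared chips entered the fits as independent. Members, lists and tests were chosen with earlier results of these data known. Named besides the 9 genes were at most 4 genes per list, those with most UMIs in mural-like and CM-like wells, and others among called genes after their values were seen. Animals paired by the chips they shared, as the well reports give them, form 2 pairs, and p-values measure the spread between animals. Intervals cover counting error only.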

Additional observations from a re-analysis of the deposited data

Results flagged for a closer look

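For 4 genes the shJun animal was above the shNT animal on all chips of pair 1 and below it on all chips of pair 2, and the difference between the pairs was not tested. In pair 2 the lowest log2 difference was -0.868 for Rgs5, -1.01 for Kcnj8, -0.571 for Pdgfrb and -1.64 for Steap4.

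In CM-like wells of the 5 P28 animals without a hairpin, 1 animal stood far above the other 4 for Steap4, with 49.1 CPM, and the same animal for Gucy1a1, with 35.2 CPM. These were 2 of 18 groups of 5 animals examined by Dixon's ratio with a critical value of 0.71, and chance alone sets apart about 5% of such groups.

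Control wells of the knockdown chips held UMIs of the pericyte genes. The 30 wells marked as negative had 8 UMIs of Rgs5, 4 of Abcc9 and 15 of Steap4, the last all in 1 well. The 30 wells marked as positive had 11 UMIs of Rgs5 in 9 wells and 9 of Pdgfrb in 6 wells.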

How the results depend on the processing

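In CM-like wells the median log2 change of the 9 genes ran from 0.18 without shNT animal 1 to 1.31 without shNT animal 2. Its direction is no sign of stability, since this contrast chose the genes. With the pairs of animals that shared chips as a block it was 0.66, and that block raised the genes called from 0 to 6 there and left 0 in the other 3 knockdown comparisons. Genes called in CM-like wells numbered 15 by DESeq2, 413 without a filter on low counts, 228 without wells of mixed markers (where shJun animal 2 kept too few wells) and 0 to 256 when 1 animal was left out. DESeq2 and no filter called 162 and 427 genes in wells not CM-like, 187 and 120 in Endothelial-like and 84 and 119 in Fibroblast-like wells.

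In wells not CM-like 46 genes were called from P4 to P7, against 259 by DESeq2, 83 without a filter, 0 with sums per chip and 0 to 3 without 1 animal. From P7 to P14 it was 669, against 2098 by DESeq2, 423 with at least 1000 genes per well, 410 with sums per chip and 36 to 509 without 1 animal. From P14 to P28 it was 496, against 1669 by DESeq2, 817 without a filter, 193 with at least 1000 genes per well, 95 with CM wells set by 5% of marker UMIs, 25 with sums per chip and 55 to 525 without 1 animal. In CM-like wells from P4 to P28 it was 1151, against 2009 by DESeq2, 641 with at most 5000 UMIs per well, 391 by the 5% rule, 706 with sums per chip and 223 to 1035 without 1 animal.

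No pericyte gene changed sign in CM-like wells from P4 to P28. The values that changed sign elsewhere follow on the log2 scale, and the cause was not tested. In CM-like knockdown wells, Pdgfrb was -2.11, Rgs5 -0.14 and Kcnj8 -0.25 without mixed wells, Kcnj8 -0.12 by the 5% rule and -0.11 in the CM fraction as loaded, and Gucy1a1 -0.07 and Steap4 0.31 with at most 5000 UMIs per well. Steap4 was 0.11 with the block and 0.08 without top wells. Leaving out an animal there gave Rgs5 -0.09 and Kcnj8 -0.46 (shNT animal 1), Kcnj8 -0.20 (shJun animal 2) and Steap4 0.24 (shJun animal 1) and 1.31 (shNT animal 2). In knockdown wells not CM-like, Rgs5 was -0.01 without a filter, -0.10 with at most 5000 UMIs per well and -0.04 with the block, Abcc9 -0.16 with at most 5000 UMIs, and in the NCM fraction as loaded Abcc9 was -0.02, Gucy1a2 0.03 and Pdgfrb 0.00. Leaving out 1 animal at a time there gave -0.95 to 0.57 for Steap4, -1.15 to 0.37 for Higd1b, -0.79 to 0.32 for Pdgfrb, -0.82 to 0.70 for Rgs5, -0.99 to 0.59 for Kcnj8, -0.49 to 0.75 for Abcc9 and -1.36 to 0.34 for Gucy1a2. In Endothelial-like wells it gave -0.63 to 0.64 for Gucy1a1. In Fibroblast-like wells it gave -0.80 to 0.64 for Gucy1a1, -0.19 to 1.02 for Pdgfrb, -0.15 to 1.10 for Rgs5 and -0.82 to 0.29 for Notch3, and Gucy1a1 was 0.04 without a filter and 0.05 with at most 5000 UMIs, and Pdgfrb -0.10 with at most 5000 UMIs. In stage wells not CM-like, leaving out 1 animal from P4 to P7 gave -0.52 to 1.36 for Gucy1a2 and -0.00 to 0.14 for Pdgfrb, and Gucy1a2 was -0.31 with at most 5000 UMIs and -0.08 per chip. From P7 to P14 it gave -0.67 to 0.03 for Steap4, which was 0.11 by the 5% rule, and -1.41 to 1.22 for Gucy1a2, which was -0.19 with at most 5000 UMIs. From P14 to P28 it gave -0.59 to 0.13 for Pdgfrb, which was 0.25 with at most 5000 UMIs, -0.05 to 0.70 for Notch3, which was -0.15 with at least 1000 genes and -0.64 by the 5% rule, -2.02 to 0.03 for Higd1b and -1.52 to 1.11 for Gucy1a2. Wells as loaded by fraction, chips of 1 fraction and the omission of top wells were chosen after seeing the data.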
